A study of Mus musculus with 6 samples.

Results

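The SLAM family is a group of 9 cell surface receptors of the immunoglobulin superfamily, and its expression is described here in lung fibroblast cultures treated with purmorphamine, a small molecule that activates Smoothened, the transducer of Hedgehog signals. The members were taken by gene symbol: Slamf1, Slamf6, Slamf7, Slamf8, Slamf9, Ly9, Cd48, Cd84 and Cd244, which the platform annotation lists under its current symbol Cd244a. All 9 were named by the annotation, among 22180 named genes. They were covered by 10 of the 41345 probe sets of the Affymetrix array, 1 each except Slamf6, and where a gene had several probe sets the brightest on average stood for it. For Slamf6 that rule kept a probe set with a mean of 7.45 and left out one with a mean of 5.14. The family was chosen on the log2 difference of Slamf7, which was already known, so the values of Slamf7 are a description and carry no test.

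Both groups were primary lung fibroblasts, labelled wild-type, enriched from digested lungs of C57BL/6 males that were 8 weeks old, passaged at most 3 times and split over wells. One group of 3 wells received vehicle, and the other group of 3 wells received purmorphamine for 24 h at a dose written as 5um in the labels and read here as 5 µM. There was 1 array per well. The labels do not say from how many mice or cell pools the wells came, so the p-values rest on how far wells of a group lay apart, a spread that may be technical alone.

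SLAM receptors are carried mostly by cells of the blood and immune system. Most members bind a copy of themselves on a neighbouring cell, whereas Cd48, which is held in the membrane by a lipid anchor, is the ligand of Cd244 and of Cd2. The cytoplasmic tails of most members hold tyrosine motifs that recruit the small adaptors encoded by Sh2d1a and the Sh2d1b genes, or, in their place, inhibitory phosphatases, while the tails of Slamf8 and Slamf9 lack these motifs and Cd48 has no tail. In macrophages, Slamf7 takes part in the engulfment of blood tumour cells, and Slamf1 and Slamf8 act at the phagosome.

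All members lie on mouse chromosome 1, 7 of them side by side. Among the members with a promoter entry, those of the 3 whose signals stood furthest from their vehicle level are shown because neighbouring genes of this cluster differed in opposite directions. Promoters of 8 of the 9 members, each 250 bases before to 50 bases after the RefSeq transcription start (build GRCm38.p6), were found, and Ly9 was not among them. The windows are chr1:171648950-171649249 on the minus strand for Slamf7, chr1:171558943-171559242 on the plus strand for Cd244a and chr1:172475110-172475409 on the plus strand for Slamf9. They are written 5′ to 3′ along the gene, and capitals mark the motif matches described next.
Slamf7: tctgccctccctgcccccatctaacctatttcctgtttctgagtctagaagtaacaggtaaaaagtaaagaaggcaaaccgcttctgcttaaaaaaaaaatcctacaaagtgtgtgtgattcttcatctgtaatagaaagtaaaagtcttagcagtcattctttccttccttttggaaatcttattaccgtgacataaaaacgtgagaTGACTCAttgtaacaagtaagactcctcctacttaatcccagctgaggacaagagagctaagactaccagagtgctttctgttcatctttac
Cd244a: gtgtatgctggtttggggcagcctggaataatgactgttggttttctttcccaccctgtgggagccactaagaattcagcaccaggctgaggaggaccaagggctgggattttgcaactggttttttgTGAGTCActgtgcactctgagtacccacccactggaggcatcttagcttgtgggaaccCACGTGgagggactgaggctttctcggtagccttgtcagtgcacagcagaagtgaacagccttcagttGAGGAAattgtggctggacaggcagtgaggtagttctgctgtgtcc
Slamf9: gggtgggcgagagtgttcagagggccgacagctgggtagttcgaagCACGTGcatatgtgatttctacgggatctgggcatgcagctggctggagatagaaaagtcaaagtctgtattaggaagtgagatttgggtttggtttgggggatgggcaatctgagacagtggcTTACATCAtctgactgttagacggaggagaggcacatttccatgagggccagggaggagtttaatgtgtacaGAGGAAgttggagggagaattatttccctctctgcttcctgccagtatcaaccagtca

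A set of 7 motifs was searched as letters on both strands, a choice made after the sequences were seen. The Slamf7 window held 1 match, to the AP-1 motif TGANTCA, starting 42 bases before the transcription start. The Cd244a window held the same motif 122 bases before the start, an E-box (CACGTG) 64 bases before it and a PU.1 core (GAGGAA) just after it. In the Slamf9 window an E-box began 204 bases, an amino acid response motif (TGATGNAA, on the opposite strand) 80 bases and a PU.1 core 8 bases before the start. Within each of these 3 windows no match overlapped another. The AP-1 motif stood in 4 of the 8 member windows (also in Cd84 and Slamf8) and in 7.81% of all 32851 promoter windows of that length, the E-box in 3 (also in Slamf8) and 7.15%, and the PU.1 core in 4 (also in Cd84 and Slamf8) and 28.3%. Cd48 held the sterol motif TCACNCCAC (1.24%), and TGATGNAA stood in 3.97% of all windows. The Gli motif GACCACCCA (0.253%) and the motif TGACGTCA (1.79%) stood in 0 of the 8. These are letter matches in a short window, and binding was not measured.

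On the arrays, whose medians lay between 6.34 and 6.39 and upper quartiles between 8.20 and 8.24 on the log2 scale, Ly9 rose by 1.04 log2 units with purmorphamine while Cd244a fell by 1.24 and Slamf9 fell by 0.71. Slamf7 was 2.72 log2 units higher. The other 5 members did not pass the test, which was limma over all 22180 genes with Benjamini-Hochberg adjustment and a threshold of 0.05. Leaving Slamf7 aside, 1 of 8 members was called higher and 2 lower, where 7.18% of all genes were called higher, 7.16% lower and 14.3% in either direction. In 5 of these 8 members the purmorphamine and vehicle values did not overlap, as in 34.2% of all genes. They lay above in 3 of the 8 and below in 2, against 17.1% of all genes each way. The median difference of the 8 was 0.03, against -0.01 over all genes.

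**Figure D1:**
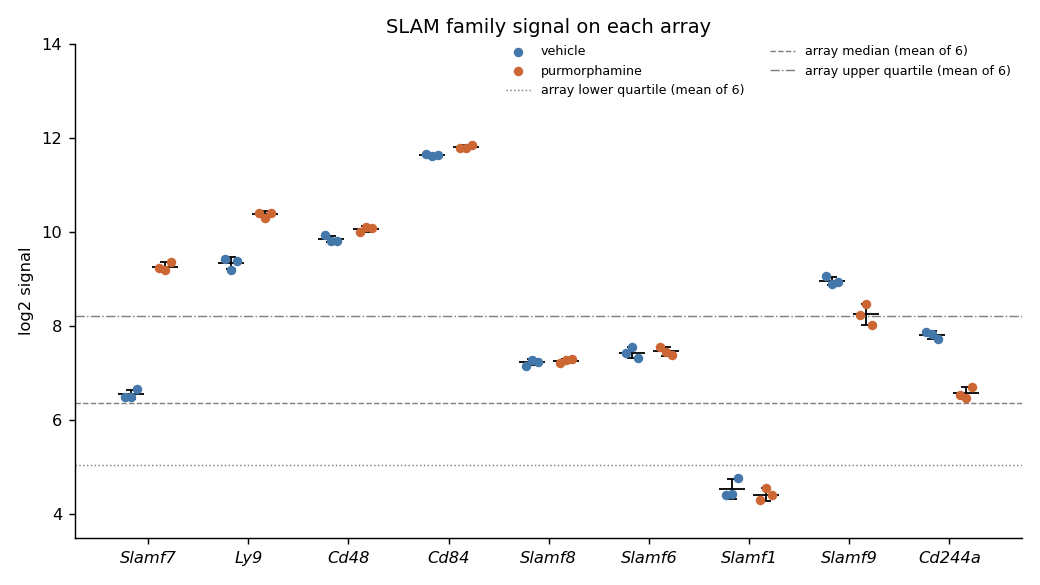
Log2 signal (y axis) of the 9 SLAM family genes (x axis) on each array, with vehicle in blue and purmorphamine in orange, 3 points per group, horizontal bars at the group mean and error bars of 1 SD. Grey lines mark the lower quartile, median and upper quartile of all probe sets. Slamf7 and Ly9 lie higher and Cd244a and Slamf9 lower with purmorphamine, and Slamf1 lies under the lower quartile in both groups.

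Slamf7, also called CRACC or CS1, is a self-binding receptor of natural killer cells, plasma cells and activated macrophages. Its signal was 6.50, 6.49 and 6.67 on vehicle replicates 1, 2 and 3 and 9.25, 9.19 and 9.38 on purmorphamine replicates 1, 2 and 3. The vehicle arrays lay just above the array medians and the purmorphamine arrays all lay above the upper quartiles, with a wide gap between the groups. Group means were 6.55 ± 0.10 and 9.27 ± 0.10 (SD, n = 3), a difference of 2.72 (SE 0.08) or 6.57-fold, rank 1 of 22180 genes among rises. With a linear offset of 50 added before taking logs the difference was 2.21, and with any 1 array left out it lay between 2.66 and 2.77.

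Ly9, or CD229, is a self-binding receptor of lymphocytes and macrophages whose gene sits next to Slamf7. Vehicle replicates read 9.44, 9.20 and 9.38 and purmorphamine replicates read 10.42, 10.30 and 10.42. The lowest purmorphamine array was above the highest vehicle array by several times the spread within a group, and all 6 values were above the upper quartiles. The mean rose from 9.34 ± 0.12 to 10.38 ± 0.07 (SD, n = 3), by 1.04 (SE 0.08, 2.05-fold, limma adjusted p = 4.21e-04), rank 29 among rises of all genes. The call held with each array left out in turn, with differences of 0.97 to 1.09.

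Cd244a, the receptor 2B4 of natural killer and other immune cells that binds Cd48, lies on the other side of Ly9 and moved the opposite way. Its signal was 7.88, 7.83 and 7.73 on the vehicle arrays and 6.54, 6.47 and 6.71 on the purmorphamine arrays. Every purmorphamine value was below every vehicle value and near the array median. The mean fell by 1.24 (SE 0.08), from 7.81 ± 0.08 to 6.58 ± 0.13 (SD, n = 3), which was 2.36-fold lower at a limma adjusted p of 2.51e-04 and rank 40 among falls. Without single arrays the fall ranged on the log2 scale from -1.31 to -1.18.

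Slamf9, a receptor with a short tail that is found on macrophages and dendritic cells, gave 9.06, 8.89 and 8.95 with vehicle and 8.24, 8.48 and 8.03 with purmorphamine. The purmorphamine arrays were lower throughout and more scattered, replicate 3 being the lowest. The mean fell by 0.71 or 1.64-fold, from 8.96 ± 0.09 to 8.25 ± 0.22 (SD, n = 3), with an SE of 0.11 and a limma adjusted p of 0.0073. The call held with any 1 array left out (limma adjusted p at most 0.031), and without both arrays numbered 3, which leaves 2 per group, the fall was 0.61 with an adjusted p of 0.055.

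Cd48 and Cd84 were bright on every array and differed little. Cd48 read 9.94, 9.81 and 9.82 with vehicle and 10.00, 10.10 and 10.10 with purmorphamine, a difference of 0.21 (95% interval 0.07 to 0.35, limma adjusted p = 0.062). Cd84, a self-binding receptor of myeloid cells, platelets and lymphocytes, read 11.67, 11.62 and 11.64 against 11.79, 11.80 and 11.86, a difference of 0.17 (0.05 to 0.29, adjusted p = 0.068). In both genes all purmorphamine values were above all vehicle values by a small margin. Both missed the test here and passed it in 3 other settings: a filter that dropped the dimmest genes, a share of 0.333 (limma adjusted p = 0.024 for Cd48 and 0.026 for Cd84), adding the linear offset (0.017 and 0.013), and eBayes with trend and robust (0.0062 and 0.0024).

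Slamf8, Slamf6 and Slamf1 overlapped between the groups. For Slamf8, which restrains the phagosome oxidase, vehicle values of 7.16, 7.29 and 7.25 stood beside 7.21, 7.27 and 7.29, and the 95% interval of the difference was -0.11 to 0.16. Slamf6, or Ly108, a receptor of T, B and natural killer cells, gave 7.43, 7.56 and 7.33 against 7.56, 7.46 and 7.38, with an interval of -0.16 to 0.21. Its dimmer probe set, with 5.00, 5.20 and 5.12 against 5.18, 5.17 and 5.16, differed by 0.06 and lay near the lower quartile. Slamf1, or CD150, a sensor of bacteria on macrophages and a marker of blood stem cells, gave 4.40, 4.44 and 4.78 against 4.30, 4.56 and 4.40, under the lower quartile of every array, so its interval of -0.39 to 0.16 bounds an array value near background and not the change of the transcript. Limma adjusted p-values of these 3 members were 0.83, 0.88 and 0.57.

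**Figure D2:**
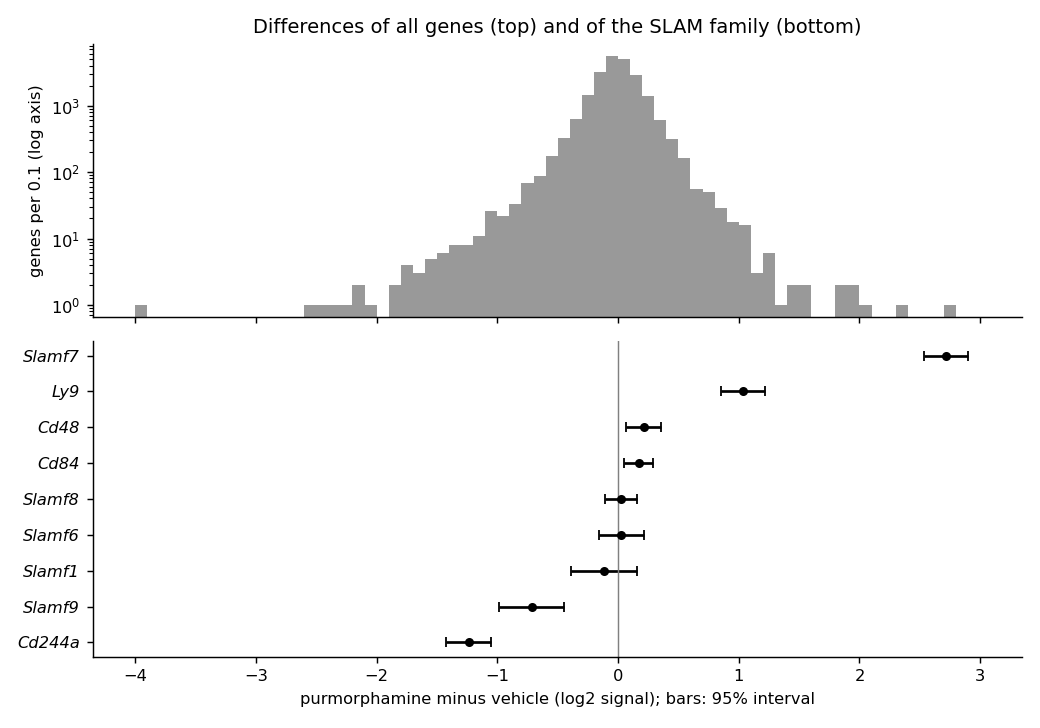
Top, number of genes (log axis) by difference of purmorphamine minus vehicle in log2 signal, in bins of 0.1, for all 22180 genes. Bottom, the same difference for each SLAM family gene with its 95% interval (limma, n = 3 per group): Slamf7 stands at the right end of the distribution at 2.72, Ly9 at 1.04, and Slamf9 and Cd244a on the left at -0.71 and -1.24. The family was chosen on the difference of Slamf7, so the interval drawn for Slamf7 is a description and carries no test.

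Because the genes are neighbours, their order was set beside the differences, taking the order alone from RefSeq. From Cd244a to Slamf6 the 7 members followed each other with no other tested gene between them: Cd244a, Ly9, Slamf7, Cd48, Slamf1, Cd84 and Slamf6. Along this row the differences were -1.24, 1.04, 2.72, 0.21, -0.12, 0.17 and 0.03. Cd244a, Ly9 and Slamf7, with the 3 differences furthest from 0, thus stood together at one end of the row. Slamf9 and Slamf8 lie further along the chromosome. Of 21 other named genes between or flanking the members, 2 were called higher and 2 lower, which is 19.0% beside the 14.3% of all genes, and their differences lay between -0.39 and 0.34. The called ones were Copa (0.26), a coat protein of vesicles, Dcaf8 (0.34), Pea15a (-0.23) and the actin-binding Tagln2 (-0.39). Tagln2 lies between Slamf9 and Slamf8. Copa lost its call without vehicle replicates 1 or 2 or purmorphamine replicates 1 or 3, and Pea15a lost it without any 1 of the 6 arrays (limma adjusted p from 0.053 to 0.058 and from 0.055 to 0.096).

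**Figure D3:**
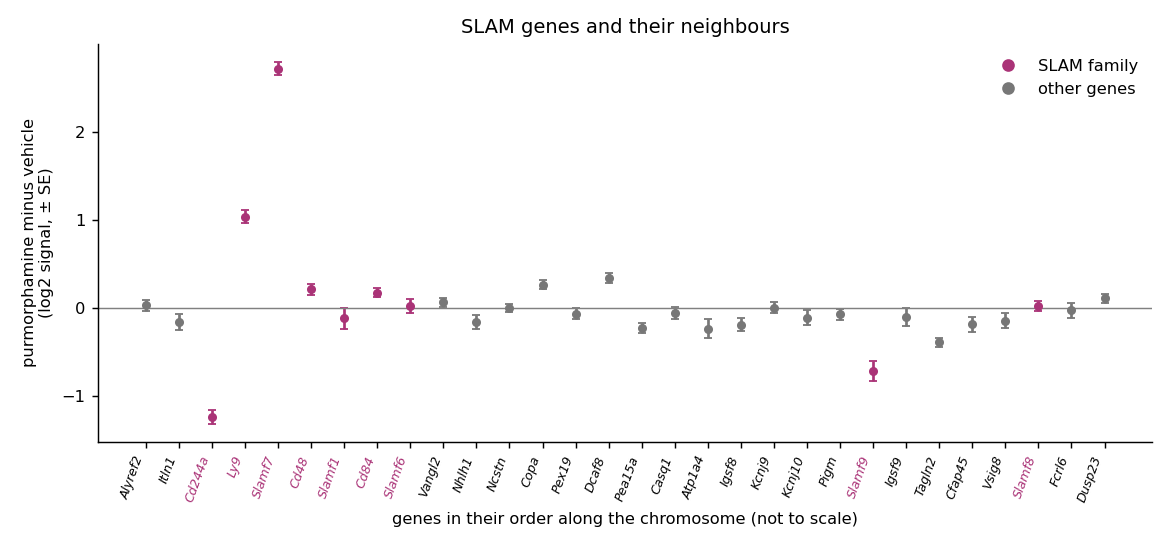
Difference of purmorphamine minus vehicle in log2 signal (y axis, with bars of 1 SE, limma, n = 3 per group) for 30 genes in their order along the chromosome (x axis, not to scale). SLAM genes are purple and other genes grey. The other genes stay between -0.39 and 0.34, while Cd244a, Ly9 and Slamf7, which follow each other, stand at -1.24, 1.04 and 2.72.

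The genes whose 6 values moved most like those of Slamf7 were looked for by the mean absolute distance between arrays after subtracting each gene's vehicle mean. The nearest was Il7r, the interleukin 7 receptor alpha chain, at a distance of 0.25 and a difference of 2.38. It was followed by the olfactory receptor gene Olfr111, which may share probes with a close copy (distance 0.41, difference 2.03), the cystine transporter gene Slc7a11 (0.43 and 1.92), the chemokine receptor gene Cxcr1 (0.47 and 1.82) and the MHC class I gene H2-M2 (0.48 and 1.96). Around Cd244a, the member with the lowest difference, lay Fdps and Msmo1, both enzymes of sterol synthesis, at distances of 0.06 and 0.07, and Fyb, an adaptor of leukocytes, Gpr65, a proton-sensing receptor, and the complement gene C1qb, at distances of 0.07. Their differences were -1.23, -1.21, -1.28, -1.36 and -1.30. Over 6 arrays in 2 groups this measure depends mostly on the size of the difference.

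Of the direct ligands and adaptors, 1 of 4 fell (median -0.25), where 7.16% of all genes fell. Sh2d1b1, which encodes the adaptor EAT-2 through which Slamf7 signals, had a signal of 9.91 ± 0.01 with vehicle and 9.56 ± 0.12 with purmorphamine (SD, n = 3) and fell by 0.36 (SE 0.07, limma adjusted p = 0.016). Its close paralog Sh2d1b2 differed by -0.35 with a larger error (SE 0.15, adjusted p = 0.19), and probes may bind transcripts of both. Sh2d1a, the adaptor SAP, differed by 0.11 (adjusted p = 0.62) and Cd2 by -0.15 (adjusted p = 0.15). The Sh2d1b1 call was lost without purmorphamine replicate 1 or any 1 of the vehicle replicates, at a highest adjusted p of 0.053.

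Among 18 measured kinases, phosphatases and other effectors of SLAM tails, 7 fell and 1 rose, with a median difference of -0.13, where 7.16% of all genes fell, 7.18% rose and the median was -0.01. Of the 18, 16 lay above the upper quartile of every array, as did 7002 of all 22180 genes. The shares of all genes include dim genes, and a share for genes of like brightness was not counted. The largest fall was that of Inpp5d, the lipid phosphatase SHIP that carries inhibitory signals of these receptors, from 10.36 ± 0.02 to 9.59 ± 0.03 (SD, n = 3), that is by 0.77 with an SE of 0.05 and a limma adjusted p of 2.40e-04. Dok2, an inhibitory docking protein, fell by 0.63 and Arhgef7 by 0.61. The tyrosine phosphatase gene Ptpn6 fell by 0.40, the phospholipase gene Plcg2 by 0.38, Csk, which restrains Src kinases, by 0.37 and Vav1 by 0.27. Plcg1 rose by 0.30. The Src family kinases measured did not pass the test: Fyn differed by -0.11, Fgr by -0.08 and Src by 0.08. Vav1 kept its call only without vehicle replicate 2 among the 6 cases of 1 array left out, with adjusted p up to 0.062.

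Of 9 genes that Slamf7 is known to need in engulfment, or that oppose or transmit it, 3 fell and 1 rose (median -0.05). Of all genes 7.16% fell and 7.18% rose. Itgam, the alpha chain of the integrin that pairs with Slamf7, went from 11.71 ± 0.05 to 10.25 ± 0.06 (SD, n = 3) and so fell by 1.46 (SE 0.06, limma adjusted p = 4.99e-05), while its beta chain Itgb2 differed by -0.05 (95% interval -0.16 to 0.07). Rac2 fell by 0.49 and the kinase gene Btk by 0.38. Syk, the kinase downstream of the signalling chains, rose by 0.24, a call that was lost with any 1 array left out (adjusted p from 0.072 to 0.124). It was also lost after median centring (0.075) and after quantile normalization (0.051). The signalling chains Fcer1g and Tyrobp differed by -0.17 and -0.02, and Sirpa and Cd47, receptor and ligand of the signal against engulfment, by 0.03 and 0.18, none past the test. Btk lost its call without purmorphamine replicate 1 (adjusted p = 0.0503).

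Genes of the phagosome, where Slamf1 and Slamf8 act, split. Of 10 measured, 3 rose and 2 fell (median 0.03), where 7.18% of all genes rose and 7.16% fell. The membrane subunits of the phagocyte oxidase rose, Cybb by 0.37 (SE 0.05, limma adjusted p = 0.0031) and Cyba by 0.26, and the cytosolic subunits Ncf4 and Ncf1 fell by 0.38 and 0.31. In the lipid kinase complex that Slamf1 recruits, Becn1 (-0.02), Pik3c3 (0.09), Pik3r4 (0.13) and Uvrag (-0.17) did not pass. Atg14 and Rubcn encode other partners of that kinase, and Atg14 rose by 0.30 while Rubcn (-0.09) did not pass. The Cyba call was lost without vehicle replicate 2 or purmorphamine replicate 1 (adjusted p up to 0.056).

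Interferon gamma is known to induce Slamf7 on macrophages. Of 11 measured genes of that pathway 2 fell and 1 rose, with a median of -0.06, where 7.16% of all genes fell and 7.18% rose. The transcription factor gene Irf1 fell by 0.44 (SE 0.06, limma adjusted p = 0.0038) and Irf8 by 0.31, where the mean of its probe sets differed by -0.09 with an adjusted p of 0.47. Jak2 rose by 0.24, a call lost without purmorphamine replicates 1 or 3 or any 1 of the vehicle replicates (adjusted p up to 0.090). Ifng itself differed by -0.06, the receptor chains Ifngr1 and Ifngr2 by -0.05 and 0.04, and the target genes Cxcl9 and Cxcl10 by -0.22 and -0.26, none past the test. Across these 5 lists, 6 of 52 measured genes rose and 15 fell, where 7.18% and 7.16% of all genes did. Of these 21 calls, 15 held with each array left out in turn. The lists were chosen with earlier results of these data known, so an excess over the shares of all genes was not tested. In the engulfment list 9 of 9 genes, and in the phagosome list 9 of 10, lay above the upper quartile of every array. Of all 22180 genes, 7002 did.

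**Figure D4:**
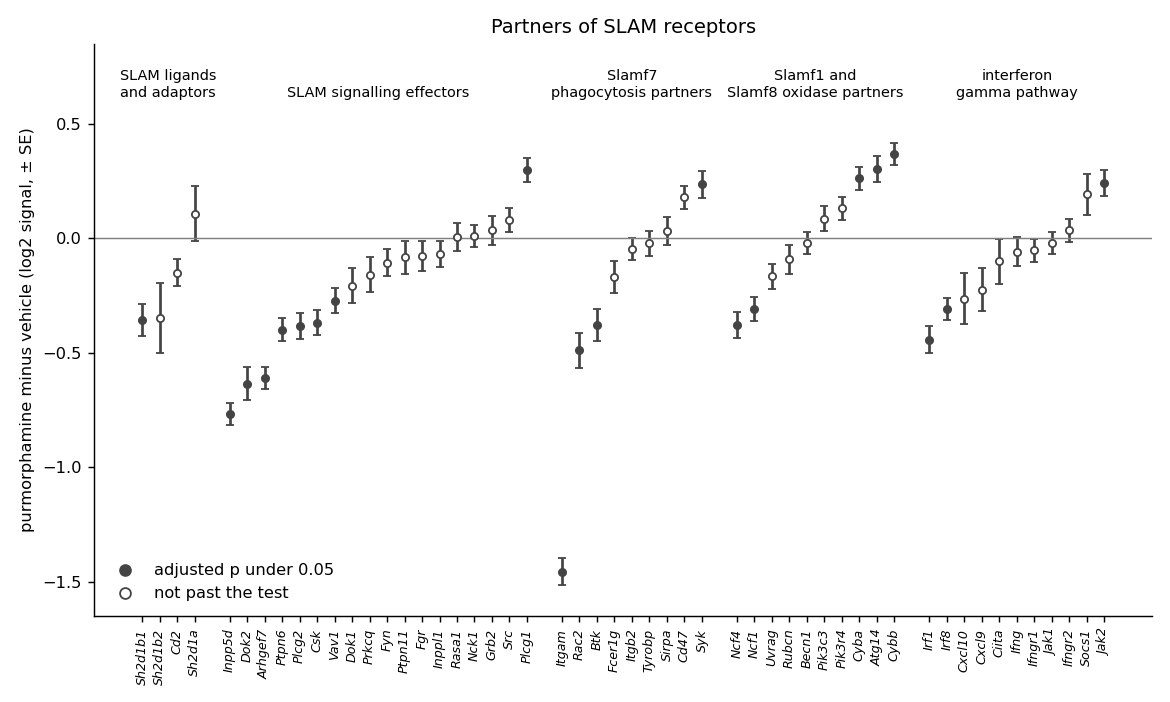
Difference of purmorphamine minus vehicle in log2 signal (y axis, bars of 1 SE, limma, n = 3 per group) for 52 genes of 5 lists (x axis), ordered by size within each list. Filled points passed an adjusted p of 0.05 and open points did not. Itgam stands lowest at -1.46, and 15 filled points lie below 0 against 6 above.

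The cells behind these signals were not separated, and in bulk cultures fewer cells of a type and less RNA per cell cannot be told apart. All 9 macrophage markers lay above the upper quartile of every array, beside 6 of 8 fibroblast markers, in cultures labelled as fibroblasts. Of all 22180 genes, 7002 lay above it. The log2 of the summed linear signal of the macrophage markers was 15.62 to 15.63 on the vehicle arrays and 15.54 to 15.58 on the purmorphamine arrays. This sum weighs bright genes most, among them Lyz2, Cd68 and Marco (vehicle means 13.96, 13.21 and 12.91), which differed by 0.05, 0.13 and 0.20. Of the 9 markers 4 fell and 1 rose, where 7.16% of all genes fell and 7.18% rose. Fcgr1 fell by 1.79, Csf1r by 0.63, Mrc1 by 0.62 and Adgre1 by 0.37, and Itgax rose by 0.31. Lyz2, Cd68, Marco and Mertk did not pass. The part of the macrophage markers in the SLAM differences was not tested. Fibroblast markers had sums of 13.97 to 14.01 and 14.36 to 14.46. Beside the same shares of all genes, 7 of 8 were raised, led by Pdgfra (0.83), and 1, Thy1, was lowered by 0.32.

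Markers of the lymphoid cells in which SLAM receptors are best known mostly lay under the upper quartiles. Their calls stand beside 7.18% of all genes called higher and 7.16% lower. Of all 22180 genes, 7002 lay above the upper quartile of every array and 3368 under the lower quartile of every array. T cell markers, of which 0 of 7 lay above the upper quartile of every array, had sums of 9.52 to 9.56 with vehicle and 9.37 to 9.46 with purmorphamine, and 1 fell, Cd28 by 0.30. Cd3e (5.89 and 5.91), Cd3d (5.71 and 5.76), Cd3g (5.35 and 5.34) and Cd8a (5.09 and 5.16) had vehicle and purmorphamine means under the array medians. Those of Cd28 (8.51 and 8.21), Cd4 (6.61 and 6.67) and Cd5 (6.55 and 6.56) lay above them. Natural killer markers had sums of 8.40 to 8.62 and 8.48 to 8.61, 2 of 6 under the lower quartile of every array (Klrb1c and Klrd1), and 0 of 6 passed the test. Of 5 B cell markers 1 rose, Cd22 by 0.27, which also was the 1 above the upper quartile, with sums of 10.03 to 10.08 and 10.21 to 10.31. These sums rest mostly on Cd22 itself (means of 9.71 and 9.98). The other B cell markers were lower, Cd79a by -0.17, Cd79b by -0.17, Pax5 by -0.18 and Ms4a1 by -0.03. None of these passed the test, and the median of the list was -0.17. For plasma cells the sums were 8.63 to 8.78 and 8.80 to 8.83 with 0 of 4 called, and for dendritic cells 8.63 to 8.74 and 8.50 to 8.69 with 0 of 5 called. The plasma cell marker Sdc1 differed by 0.16 (limma adjusted p = 0.16).

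Mast cell markers had sums of 7.43 to 7.52 and 7.65 to 7.77, with 3 of 5 under the lower quartile (Cpa3, Fcer1a and Mcpt4) and 1 raised, Kit by 0.35. The other mast cell markers differed by -0.26 (Cpa3), -0.23 (Fcer1a), 0.12 (Mcpt4) and 0.22 (Tpsb2), none past the test. Neutrophil markers had sums of 8.38 to 8.62 and 8.50 to 8.59, with 1 of 5 raised, Csf3r by 0.43. The other neutrophil markers differed by -0.38 (S100a8), -0.27 (Ly6g), 0.03 (S100a9) and 0.02 (Camp), none past the test. Epithelial markers had sums of 11.36 to 11.40 and 11.41 to 11.44, with 1 of 5 raised, Epcam by 0.50. Sftpc (-0.25), Cdh1 (-0.04), Krt8 (-0.01) and Nkx2-1 (0.04) did not pass. Endothelial markers had sums of 11.09 to 11.17 and 11.39 to 11.45, with 2 of 4 raised, Cdh5 by 0.34 and Pecam1 by 0.30. Tek (0.25) and Kdr (0.06) did not pass. Of all genes 7.18% were called higher and 7.16% lower, the shares to set beside these counts of calls. Under the lower quartile of every array lay 3368 of all 22180 genes.

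**Figure D5:**
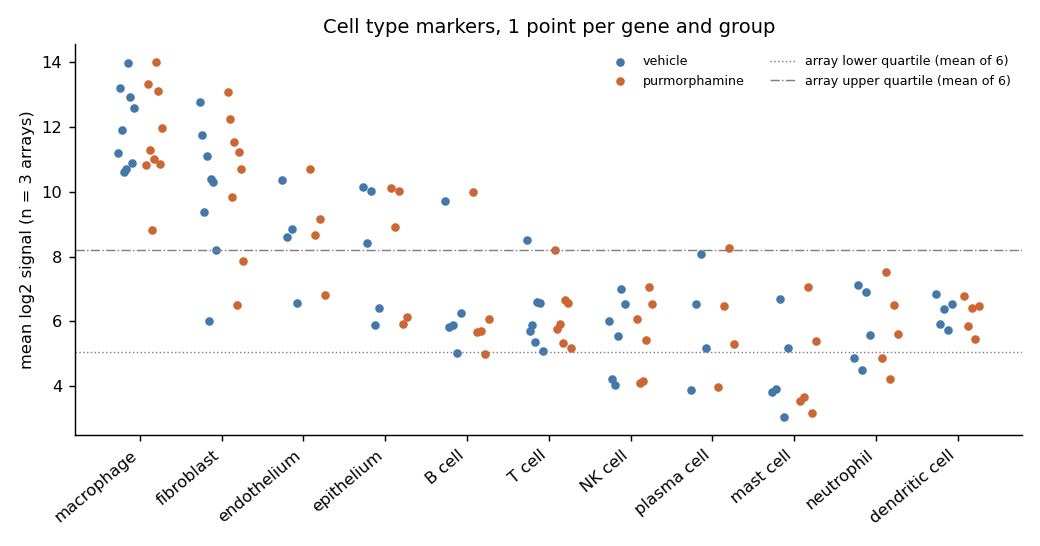
Mean log2 signal (y axis, 3 arrays per group) of the marker genes of 11 cell types (x axis), 1 point per gene, vehicle in blue and purmorphamine in orange, with the mean lower and upper quartile of the arrays as grey lines. All 9 macrophage markers lie above the upper line in both groups, while T cell, natural killer, mast cell, neutrophil and dendritic cell markers lie mostly below it.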

How the data were processed

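RNA of 3 vehicle and 3 purmorphamine wells was measured on 1 Affymetrix array each. The authors' deposited values are log2 signals per probe set, and per the submitters' processing notes the tools were oligo and limma with RMA, their versions and the genome build being not given in the sources used here. RMA gives arrays a common distribution and compresses changes of dim genes. Of 41345 probe sets, 23521 had 1 gene symbol in the supplied platform annotation and only these were named. Of several probe sets the one brightest on average was kept, leaving 22180 genes. Cd244 was matched as Cd244a through RefSeq synonyms.

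The difference, purmorphamine minus vehicle, came from limma 3.58.1 (lmFit, then eBayes, in R 4.3.3), two-sided, without a block and without a filter on dim genes, with Benjamini-Hochberg adjustment over all genes and calls at an adjusted p under 0.05. The median SE was 0.07, and the number of arrays limits the precision. Fold is 2 to the power of the log2 difference. The steps were tested on simulated data.

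Members and lists were chosen with earlier results of these data known. The text names all members, the called and other listed genes of 5 partner lists, genes around the members in the RefSeq order (GRCm38.p6), the 5 genes nearest in pattern to Slamf7 and to the member with the lowest difference, and the markers of 11 cell types. Of 58 listed partner genes 52 were measured. The alternatives changed centring, normalization, a linear offset of 50, the filter on dim genes (a share of 0.333), probe set averaging, the variance model, array weights, the replicate block, single arrays, the threshold and the unit of the test. Leaving out both arrays numbered 3, which stood apart on the second principal component, was added after seeing the data. Python 3.11.15 drew the plots.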

Additional observations from a re-analysis of the deposited data

How the results depend on the processing

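The Slamf7 difference stayed between 2.66 and 2.77 in all alternatives but the linear offset of 50, which gave 2.21. Leaving Slamf7 aside, 3 members in place of 1 were called higher with the linear offset, with the dimmest genes left out, with eBayes with trend and robust and at an adjusted p under 0.1, the added ones being Cd48 and Cd84. Without both arrays numbered 3, which leaves 2 per group, 1 member in place of 2 was called lower, and 440 genes were called higher and 511 lower in place of 1593 and 1588. Dropping single arrays, which leaves fewer samples, 897 to 1168 genes were called higher and 1057 to 1206 lower. The number called higher was 2416 with trend and robust and 1052 when probe sets were not reduced to genes. The replicate block gave 1193 genes higher and 1239 lower, 1 and 2 of the 8 members as without it, and ended the calls of Syk, Jak2 and Pea15a. The labels do not say what the numbers share. Same-numbered arrays correlated in their deviations from the group means at 0.11, 0.02 and 0.10, each array best with its own number, a hint from the data and not the design. Signs turned only among uncalled members: Slamf1 was 0.0086 without both arrays numbered 3, Slamf6 was -0.030 without vehicle replicate 3 and -0.021 without purmorphamine replicate 1 (up to 0.085 without other arrays), and Slamf8 was -0.0091 without vehicle replicate 1 (up to 0.052). Of the 21 called partner genes, 4 were still called without both arrays numbered 3. The cause of these changes was not tested. Slamf1, under the lower quartile, is limited by background. Of 560 gene differences under alternatives, 480 kept direction and call.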
